A study of Mus musculus with 6 samples.

Results

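The genes described here move cholesterol out of cells or switch that traffic on, in cultures of aortic endothelial cells from mice with and without a dominant negative PPARG. They were chosen by name, as every probe set that the array annotation pairs with Abca1, Abcg1, Nr1h3, Nr1h2, Apoe, Npc1, Npc2, Scarb1 or Pltp. Of the 9 genes, 8 had a listed probe set, with 17 probe sets among the 45101 on the array, and Nr1h2 was not analysed here. The transgenic group was 3 cultures from C57 mice that carry human PPARG with the V290M change under the promoter of CDH5, an endothelial cadherin gene. The other group was 3 cultures from non-transgenic C57 mice. Each culture came from 2 mice and received no treatment, so a replicate is a culture of pooled animals (n = 3 per group). Age and sex are not given in the sources used here.

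LXR alpha, encoded by Nr1h3, and LXR beta are nuclear receptors that bind oxysterols and pair with RXR, and together they switch on genes for removing cholesterol. Abca1 and Abcg1 are membrane pumps of this programme that hand cholesterol to poor and to mature HDL particles, while apolipoprotein E and the phospholipid transfer protein Pltp act on the particles outside the cell. Npc1 and Npc2 release cholesterol from lysosomes, and Scarb1 is the HDL receptor, through which cholesterol can pass in either direction. PPARG is known in macrophages to raise this programme by raising Nr1h3. In endothelium, efflux through these pumps is known for limiting sterol load in the vessel wall.

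The arrays were scaled to a trimmed mean near 1500 on each, and their median signal was 173 to 186.1 in the transgenic and 219.9 to 222.9 in the non-transgenic group. Transgenic replicate 3 stood apart from its group over all genes, with a mean rank correlation of 0.907 with the other transgenic and 0.972 with the non-transgenic arrays. The differences of the brightest probe sets are therefore given with and without transgenic replicate 3. Transgenic replicate 2 lay farthest from the non-transgenic arrays, with a mean rank correlation of 0.897, and of 0.925 with the other transgenic arrays. Of 20 endothelial markers, 12 lay on average under the level needed for testing, Cdh5, Pecam1 and Nos3 among them on every array. The other 8, Flt1, Tek, Emcn, Cd34, Eng, Egfl7, Ramp2 and Plvap, lay on average above it, as did all 14 fibroblast markers. Of the 20 endothelial markers, 11 lay under the level on every array. The level is a filter and no measure of absence or presence, so these values do not settle how far the cultures met the endothelial label. Gapdh control probe sets at the 3′ end were brighter than those at the 5′ end by a ratio of 1.20 to 1.44 in the transgenic and 1.51 to 1.71 in the non-transgenic cultures, a measure of how complete the amplified transcripts are. For the beta-actin controls the groups overlapped, at 1.74, 1.40 and 2.21 in the transgenic against 2.17, 2.00 and 1.83 in the non-transgenic cultures. The part of these ratios in the results was not tested.

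Abca1, Abcg1, Apoe and Pltp, the pumps and the secreted lipid carriers, lay lower in transgenic replicates 1 and 2 than in every non-transgenic culture, and transgenic replicate 3 lay near or above the non-transgenic values. Scarb1 lay the other way, and Nr1h3 and Npc2 showed no common shift. With all 6 arrays, limma called 0 of the 8 genes (adjusted p under 0.05 by the Benjamini-Hochberg method), as it called 0.0% of the 11208 genes tested. At an unadjusted p under 0.05 there were 2 of the 8, Abca1 and Abcg1, both lower, against 5.02% of all genes tested lower at that level. Without transgenic replicate 3, limma called 4 of the 8 lower, namely Abca1, Abcg1, Apoe and Pltp, against 7.83% of all genes tested. It called 0 of the 8 higher, against 6.88% of all genes. That array was left out because it was known to stand apart, so these 4 calls describe 2 transgenic cultures and are not separate support. Leaving out transgenic replicate 2 instead gave 0 calls among the 8, against 0.0% of all genes. With estimated array weights 6 of the 8 were called, against 49.1% of all genes. The median difference of the 8 genes was -0.38 on the log2(signal + 16) scale, against -0.021 over all genes tested, and -0.70 against -0.058 without transgenic replicate 3. Of the 8, 6 lay below 0, as did 52.5% of all genes. All differences are transgenic minus non-transgenic.

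**Figure D1:**
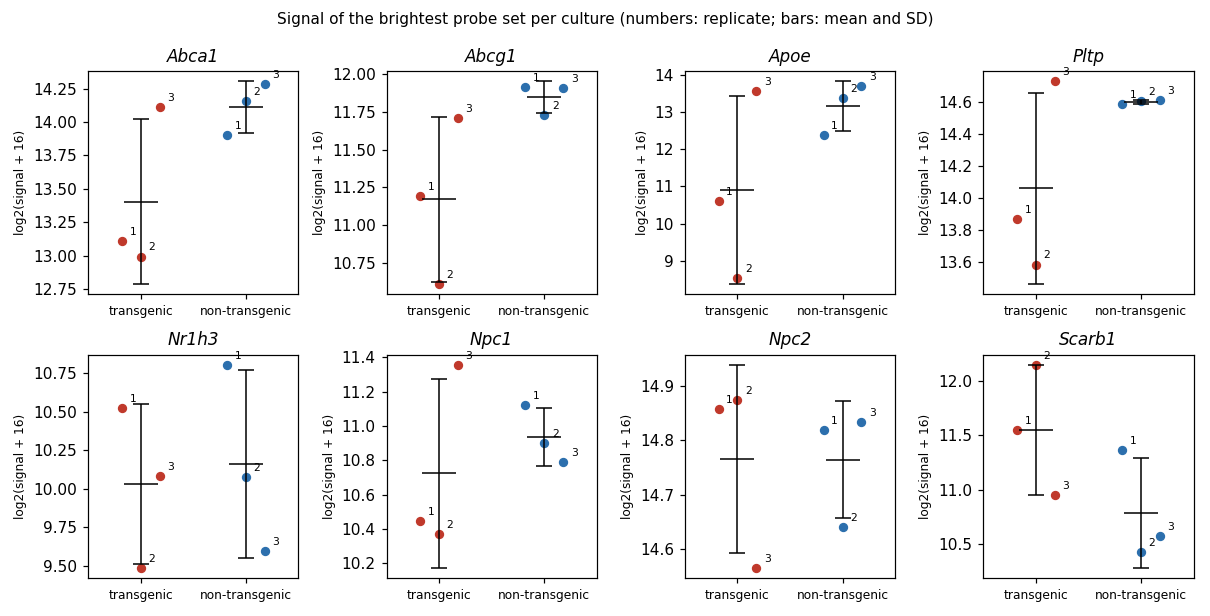
Signal on a log2(signal + 16) axis of the brightest probe set of each of the 8 genes, transgenic cultures in red on the left and non-transgenic cultures in blue on the right, with replicate numbers beside the points and bars for the mean and SD (n = 3). Transgenic replicates 1 and 2 lie below all non-transgenic points for Abca1, Abcg1, Apoe, Pltp and Npc1 and above them for Scarb1 and Npc2, and each panel has its own axis that does not start at 0.

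Abca1, the pump that loads lipid-poor apolipoprotein A-I, had a signal of 8812, 8136 and 17682 in the transgenic cultures, replicates 1 to 3, against 15309, 18234 and 19926 in the non-transgenic cultures on its brightest probe set, 1421840_at. Transgenic replicates 1 and 2 were low, and replicate 3 fell among the non-transgenic cultures. The difference was -0.71 ± 0.28 (log2, SE, n = 3 per group), 1.64-fold lower (limma adjusted p = 0.428). Without transgenic replicate 3 it was -1.06 ± 0.14, 2.09-fold lower (limma adjusted p = 0.00558, 2 against 3 cultures), and without transgenic replicate 2 it was -0.50. In cultured cells a lower signal may come from less RNA per cell or from fewer cells of a type, which cannot be told apart here.

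The other 2 probe sets of Abca1 pointed the same way. Probe set 1421839_at had 244.4, 474.3 and 747.8 in the transgenic cultures against 624.7, 946 and 1048 in the non-transgenic cultures, a difference of -0.92 ± 0.42. Probe set 1450392_at had 162, 156.7 and 222 in the transgenic cultures against 222.3, 423.2 and 485.1 in the non-transgenic cultures, a difference of -0.95 ± 0.34. On this dim probe set the groups did not overlap, although transgenic replicate 3, at 222, and non-transgenic replicate 1, at 222.3, were nearly equal. The transgenic mean of this probe set, 7.60 on the log2 scale, lay under the level needed for testing. It thus passed the filter only through the non-transgenic group. Of all probe sets tested, 11.8% had transgenic cultures wholly below. When every probe set was tested, limma's adjusted p for the 3 probe sets of Abca1 was 0.285, 0.325 and 0.263, in order of their brightness. In the limma fit without transgenic replicate 3 the first 2 were called (adjusted p = 0.0041 and 0.0377), as were 10.7% of all probe sets tested in that direction, and the dimmest was not (adjusted p = 0.0664).

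Abcg1, the pump that passes cholesterol to mature HDL, had 2323, 1545 and 3325 in the transgenic cultures against 3840, 3376 and 3830 in the non-transgenic cultures on probe set 1423570_at. All 3 transgenic cultures lay below all 3 non-transgenic ones, with transgenic replicate 3 just under the lowest of them. Abcg1 was the 1 gene of the 8 whose groups did not overlap, and 6.72% of all genes tested had transgenic cultures wholly below. The difference was -0.68 ± 0.28, 1.60-fold lower (limma adjusted p = 0.428), and -0.95 ± 0.22 without transgenic replicate 3 (adjusted p = 0.0273), but -0.40 without transgenic replicate 2. Its second probe set, 1455221_at, lay under the level needed for testing, at 131.3, 39.2 and 232.2 in the transgenic against 182.5, 156.8 and 214.4 in the non-transgenic cultures. There transgenic replicate 3 was the highest of the 6.

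Apoe, the lipoprotein ligand that macrophages and other cells secrete to carry cholesterol away, spread most widely of the 8. Its 1 probe set, 1432466_a_at, had 1537, 358.6 and 12043 in the transgenic cultures against 5345, 10657 and 13153 in the non-transgenic cultures. Transgenic replicates 1 and 2 were far below the non-transgenic cultures and replicate 3 was near the top of their range. The mean on the log2 scale was 10.90 ± 2.52 in the transgenic and 13.15 ± 0.68 in the non-transgenic cultures (SD, n = 3 each). The difference of -2.25 ± 1.09 (SE) is a 4.75-fold lower level (limma adjusted p = 0.449). It was -3.58 ± 0.59, 11.9-fold lower, without transgenic replicate 3 (adjusted p = 0.0102) and -1.07 without transgenic replicate 2, so that 1 culture moved its size by more than 1.5 times either way.

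Pltp, which moves phospholipid between lipoproteins and is a known LXR target, had 14953, 12271 and 27246 in the transgenic cultures against 24643, 24947 and 25035 in the non-transgenic cultures on probe set 1456424_s_at. The non-transgenic cultures were nearly alike, with an SD of 0.012 on the log2 scale, and transgenic replicate 3 lay above all of them. The difference was -0.54 ± 0.26 (limma adjusted p = 0.449) and -0.88 ± 0.11 without transgenic replicate 3 (adjusted p = 0.00529), but -0.30 without transgenic replicate 2. Its dimmer probe set, 1417963_at, had 2211, 1945 and 9803 in the transgenic against 5600, 7058 and 5947 in the non-transgenic cultures. Again transgenic replicates 1 and 2 lay below and replicate 3 above all non-transgenic cultures. There the difference was -0.82 ± 0.55 with all arrays (limma over all probe sets, adjusted p = 0.470). It was -1.57 ± 0.18 without transgenic replicate 3 (limma over all probe sets, adjusted p = 0.0028), but -0.40 without transgenic replicate 2.

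Promoter windows of Abca1, Apoe and Pltp are shown because these genes lay low together, and because LXR and PPAR are known to bind repeats of a shared hexamer. RefSeq windows of 300 bases, 250 before and 50 after a transcript start in assembly GRCm38.p6, were listed for 6 of the 9 genes, 9 windows in all. They were searched on both strands for the LXR element DR4 and the PPAR element DR1, direct repeats of AGGTCA with 4 and with 1 free letters between the copies. With at most 2 mismatched letters, 0 of the 9 windows held either, against 3.02% of all 32851 windows for DR4 and 3.86% for DR1. With at most 3 mismatched letters, a limit chosen after the first search, 1 window held DR4, that of Abca1, and 1 held DR1, the first listed for Apoe, against 21.9% and 24.6% of all windows. CACGTG, the E-box, was present in the Abca1 window (7.15% of all windows). TATAAA, read on the strand of the gene, was present in 3 of the 9, against 8.32% of all. Capitals mark these letters below, 5′ to 3′.
Abca1, chr4:53159846-53160145, minus strand: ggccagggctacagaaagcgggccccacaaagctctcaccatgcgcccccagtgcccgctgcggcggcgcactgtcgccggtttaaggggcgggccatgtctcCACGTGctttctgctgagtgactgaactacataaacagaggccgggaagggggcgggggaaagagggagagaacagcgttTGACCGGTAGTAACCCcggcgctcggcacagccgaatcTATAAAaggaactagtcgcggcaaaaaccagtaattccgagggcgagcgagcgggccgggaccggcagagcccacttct
Apoe, chr7:19699139-19699438, minus strand: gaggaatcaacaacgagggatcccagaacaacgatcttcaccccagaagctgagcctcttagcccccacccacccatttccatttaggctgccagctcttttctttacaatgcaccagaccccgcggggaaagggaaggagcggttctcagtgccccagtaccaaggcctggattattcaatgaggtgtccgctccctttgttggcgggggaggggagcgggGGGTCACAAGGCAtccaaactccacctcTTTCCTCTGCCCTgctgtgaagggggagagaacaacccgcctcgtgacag
Pltp, chr2:164857659-164857958, minus strand: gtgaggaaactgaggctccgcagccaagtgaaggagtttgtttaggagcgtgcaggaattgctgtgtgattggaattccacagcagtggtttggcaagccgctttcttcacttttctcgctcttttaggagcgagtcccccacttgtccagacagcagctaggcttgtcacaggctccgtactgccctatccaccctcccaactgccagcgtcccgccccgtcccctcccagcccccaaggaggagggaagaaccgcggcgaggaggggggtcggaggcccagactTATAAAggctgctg
The DR4 match of Abca1 starts 67 bases before the transcript start, on the strand opposite to the gene, followed by TATAAA 29 bases before it. The first DR1 match of Apoe starts 28 bases before the start and the second at base 1. In Pltp the TATAAA lies after the listed start, at base 37. A match describes letters and not binding, and the windows leave out distant enhancers, where the known LXR elements of Apoe lie.

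Scarb1, the HDL receptor SR-BI, lay higher on all 3 of its probe sets, and transgenic replicate 2 was the highest culture on each. Probe set 1416050_a_at had 2981, 4537 and 1961 in the transgenic cultures against 2624, 1358 and 1503 in the non-transgenic cultures. Transgenic replicate 3 fell between the non-transgenic values. The difference was 0.76 ± 0.37, 1.70-fold higher (limma adjusted p = 0.449), and 1.07 ± 0.32 without transgenic replicate 3 (adjusted p = 0.0624), but 0.46 without transgenic replicate 2. The differences on the other 2 probe sets, 1455820_x_at and 1437378_x_at, were 0.64 ± 0.33 and 0.61 ± 0.40, and on both of them transgenic replicate 1 also lay inside the non-transgenic range. When every probe set was tested without transgenic replicate 3, limma called the first of the 3 (adjusted p = 0.0492), and 7.20% of all probe sets tested were called higher. The call thus differed between the fit over genes and the fit over probe sets.

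Nr1h3, the LXR alpha gene itself, had 1456, 701.7 and 1067 in the transgenic cultures against 1774, 1064 and 757.8 in the non-transgenic cultures. The groups overlapped, with transgenic replicate 1 inside the non-transgenic range and replicate 2 the lowest of all 6. The difference was -0.13 ± 0.39 (limma adjusted p = 0.905), and -0.15 ± 0.42 without transgenic replicate 3 (adjusted p = 0.832). Its sign turned under 4 of the alternatives, and with this SE a difference of the size measured for the pumps could not be told from 0.

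Npc1, the lysosomal membrane protein that takes cholesterol over from Npc2, had 1377, 1308 and 2606 in the transgenic cultures against 2210, 1899 and 1753 in the non-transgenic cultures. Transgenic replicates 1 and 2 were below and replicate 3 was above all non-transgenic cultures, so the difference of all arrays was small, -0.21 ± 0.30 (limma adjusted p = 0.779). It was -0.53 ± 0.20 without transgenic replicate 3, which did not pass (adjusted p = 0.116).

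Npc2, the soluble cholesterol carrier of the lysosome, was steady on its 2 brightest probe sets. Probe set 1416901_at had 29665, 30013 and 24225 in the transgenic cultures against 28877, 25514 and 29195 in the non-transgenic cultures, a difference of 0.0013 ± 0.11 (limma adjusted p = 0.997), or 0.10 without transgenic replicate 3. Probe set 1448513_a_at differed by -0.031 ± 0.12. The dimmer probe set 1455768_at had 7896, 8121 and 8294 in the transgenic cultures, all above the 7367, 6209 and 6142 of the non-transgenic cultures, with a difference of 0.31 ± 0.14 (limma over all probe sets, adjusted p = 0.335). Of all probe sets tested, 8.30% had transgenic cultures wholly above. The probe sets of Npc2 thus disagreed on whether the groups overlapped. The dimmest, 1443266_at, was too dim to test, at 38.1, 41.9 and 7.7 in the transgenic against 53.3, 37.4 and 55 in the non-transgenic cultures.

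**Figure D2:**
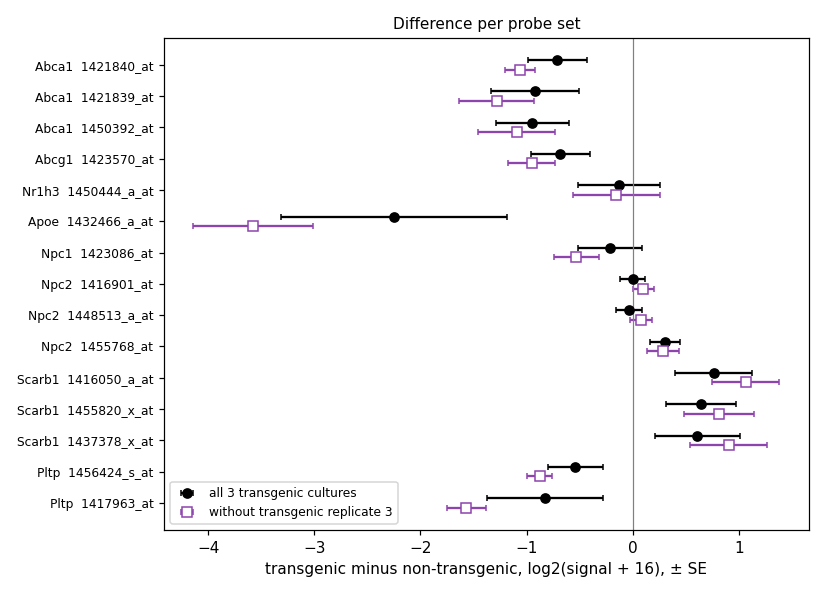
Log2(signal + 16) difference, transgenic less non-transgenic, with its SE, for each of the 15 probe sets tested, with all arrays (filled circles) and without transgenic replicate 3 (open squares). The bright Abca1 probe set moves to -1.06 and Apoe to -3.58 when that array is left out, while the probe sets of Nr1h3 and the 2 bright ones of Npc2 stay near 0.

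Across the 8 genes, 5 had transgenic replicates 1 and 2 both below every non-transgenic culture (Abca1, Abcg1, Apoe, Npc1 and Pltp), a pattern shown by 27.4% of all genes tested. Another 2, Scarb1 and Npc2, had both above, against 22.8% of all genes. For the 5 lower genes transgenic replicate 3 lay below the non-transgenic range in 1, Abcg1, inside it in 2, Abca1 and Apoe, and above it in 2, Npc1 and Pltp. Relative to the non-transgenic mean, transgenic replicate 2 was farther off than replicate 1 for all 5, with Apoe at -4.60 against -2.55 and Abcg1 at -1.24 against -0.66.

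Genes with nearly the same course over the 6 arrays were found by the root mean square difference of mean-centred log2 values. For Abca1 these were Prkab2 (0.075), Cyria (0.082) and Ank2 (0.086), against a median of 0.54 over all genes tested. For Abcg1 they were Usp54, Zfp608 and Gpr85, with 0.063 to 0.066. For Apoe they were Gdpd2 (0.19), Fbln7 (0.22) and Angpt2 (0.31), against a median of 1.86. Angpt2, angiopoietin 2, is a secreted ligand of the endothelial receptor Tie2, and had log2 values of 9.23, 7.96 and 12.09 in the transgenic against 11.19, 11.91 and 12.33 in the non-transgenic cultures. For Pltp they were H2-D1, Ermp1 and Bambi (0.025 to 0.060) and for Scarb1 Acot7, Ctnnbip1 and Gm13889 (0.057 to 0.11). For Nr1h3 they were Rtn4rl1, Ptges2 and 2810414N06Rik (0.12 to 0.16), for Npc1 Rgp1, Wbp2 and Prpf8 (0.052 to 0.057) and for Npc2 Tmed9, Cyth3 and Myh9 (0.024 to 0.028). All 6 points share the group and the array behind each value, so these are descriptions of likeness.

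Other known LXR targets did not share one direction. Of 20 listed, 12 were tested, of which 6 lay higher and 6 lower, with a median difference of -0.038, or -0.10 without transgenic replicate 3. Leaving out 1 array at a time put this median between -0.34 (without non-transgenic replicate 3) and 0.12 (without non-transgenic replicate 1). Lpl, lipoprotein lipase, lay lower in all 3 transgenic cultures, with log2 values of 13.69, 12.87 and 14.36 against 14.58, 14.56 and 14.70 in the non-transgenic cultures, a difference of -0.98 ± 0.32 (limma adjusted p = 0.428). The phagocytic receptor Mertk also lay wholly lower, by -0.75 ± 0.34, and 6.72% of all genes tested did so. Mylip, a ubiquitin ligase that LXR uses to remove the LDL receptor, was at 10.39, 9.37 and 11.55 in the transgenic against 11.06, 11.52 and 11.57 in the non-transgenic cultures. Srebf1, through which LXR drives fatty acid synthesis, differed by 0.045 ± 0.44, and Tnfaip2 by 0.36 ± 0.15. In the fit without transgenic replicate 3, limma called 3 of the 12 lower and 1 higher, Tnfaip2, against 7.83% and 6.88% of all genes tested. The 3 were Lpl, Mylip and Smpdl3a, a phosphodiesterase gene named after its values were seen.

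The list of LXR partners and coregulators, which also held another receptor gene, Nr1h4, lay mostly lower, 8 of 9 tested. Among all genes tested, 52.5% lay lower. The median of the list was -0.42, or -0.76 without transgenic replicate 3 and -0.20 without transgenic replicate 2. Nrip1, a corepressor of nuclear receptors, lay wholly lower at 11.95, 11.75 and 13.32 in the transgenic against 13.40, 13.81 and 13.69 in the non-transgenic cultures, by -1.29 ± 0.38 (limma adjusted p = 0.428). Of all genes tested, 6.72% lay wholly lower. Rxra, the shared partner of LXR and PPARG, was at 11.67, 11.83 and 13.34 in the transgenic against 13.04, 12.82 and 12.93 in the non-transgenic cultures. Replicates 1 and 2 were low and replicate 3 was the highest of the 6, as for Pltp. The difference of Rxra was -0.65 ± 0.41, and -1.18 without transgenic replicate 3 (limma adjusted p = 0.00529). The coactivator Ncoa1 differed by -0.69 ± 0.33, and Nr1h4, the bile acid receptor FXR, lay the other way at 0.87 ± 0.36. In that fit limma called 4 of the 9 lower (Nrip1, Rxra, Ncoa1 and the coactivator Ncoa3, the last named after its values were seen) and 1 higher, Nr1h4. Over all genes tested, 7.83% were called lower and 6.88% higher.

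Of 5 tested genes that make or modify the oxysterol ligands of LXR, 2 lay higher and 3 lower, with a median of -0.089, or -0.36 without transgenic replicate 3. Ch25h, cholesterol 25-hydroxylase, was at 13.19, 12.67 and 11.30 in the transgenic against 10.18, 10.90 and 10.83 in the non-transgenic cultures, with no overlap and a difference of 1.75 ± 0.46 (limma adjusted p = 0.428). Over all probe sets tested, 8.30% lay wholly above. Cyp27a1, sterol 27-hydroxylase, was at 8.73, 7.60 and 11.86 in the transgenic against 10.99, 11.62 and 11.74 in the non-transgenic cultures, a difference of -2.05 ± 0.95. Transgenic replicates 1 and 2 were far below the rest, as for Apoe, and replicate 3 was the highest of the 6. Cyp7b1, which breaks oxysterols down, differed by -1.05 ± 0.74. Both hydroxylases were called when transgenic replicate 3 was left out, Ch25h at 2.29 (limma adjusted p = 0.00449) and Cyp27a1 at -3.28 (adjusted p = 0.00413). In that fit 6.88% of all genes tested were called higher and 7.83% lower.

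**Figure D3:**
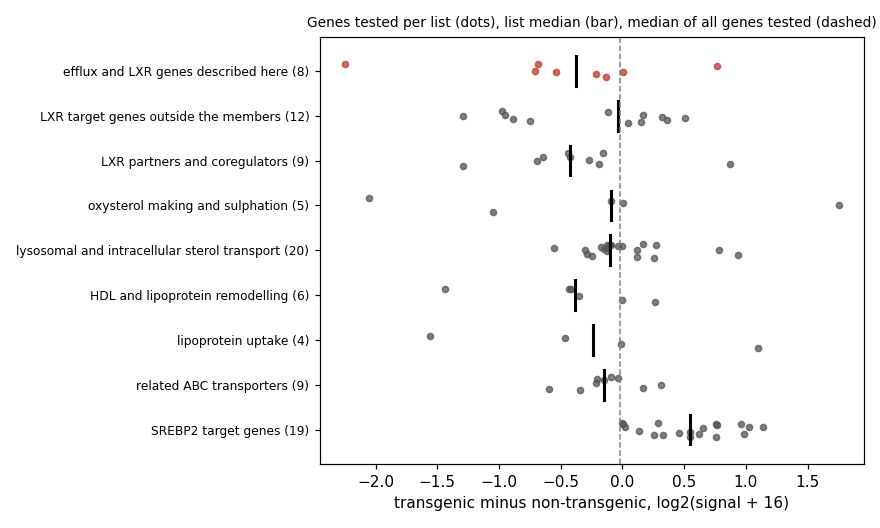
Difference of each gene tested (dots, transgenic minus non-transgenic, log2(signal + 16)) in the efflux and LXR genes and in 8 other sterol lists, with list medians as bars, the number tested in brackets and the median of all genes as a dashed line. The efflux genes have a median of -0.38 and the SREBP2 targets one of 0.55.

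Genes of sterol synthesis lay mostly higher. Of 19 SREBP2 targets tested, 18 lay higher, with a median of 0.55, or 0.33 without transgenic replicate 2. Among all 11208 genes tested, 5320 lay higher. Mvd, Mvk and Msmo1, enzymes of the mevalonate and sterol pathway, differed by 1.02 ± 0.34, 0.62 ± 0.24 and 0.99 ± 0.35 (limma adjusted p = 0.428 each). In the fit without transgenic replicate 3, limma called 6 of the 19 higher and 0 lower, against 6.88% and 7.83% of all genes tested. Lysosomal and intracellular sterol transport genes had a median of -0.097 over 20 genes, with 7 higher and 13 lower, and the median turned to 0.072 without transgenic replicate 2. Of these Tmem97, a sterol-regulated protein that binds Npc1, differed by 0.93 ± 0.47, Scp2 by -0.30 ± 0.14 and Lamp2 by -0.24 ± 0.11. Among 9 related ABC transporters tested, 2 lay higher and 7 lower with a median of -0.15, or -0.057 without transgenic replicate 2. Abca5 differed by -0.60 ± 0.32, while the groups did not overlap for Abcb1b at 0.31 ± 0.18 and Abcg2 at -0.15 ± 0.10. Wholly lower were 6.72% of all genes tested, and wholly higher 8.30% of all probe sets tested. limma called 0 genes of any of these lists on all 6 arrays.

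Markers of other cell types also differed between the cultures. Of the adipocyte markers, 6 of 6 tested lay lower, with a median of -2.23, or -1.48 without transgenic replicate 2. Among all genes tested, 52.5% lay lower. Aqp7, Slc2a4 and Cidec passed the filter only through the non-transgenic group, with transgenic means of 6.63, 6.71 and 7.42. Their direction was thus favoured by the filter. Adipocyte markers above the test level numbered 2, 1 and 6 of 10 in the transgenic cultures against 7, 6 and 5 in the non-transgenic cultures, with a summed signal of 882.6 to 7657 against 6371 to 37731. Adipoq, a hormone of fat cells that are themselves rich in lipid transport genes, was at 11.41, 8.30 and 12.30 in the transgenic against 14.33, 12.87 and 12.13 in the non-transgenic cultures. Non-transgenic replicate 1, highest for Adipoq, was the lowest non-transgenic culture for Apoe, Abca1 and Pltp on their brightest probe sets. It was the highest non-transgenic culture for Abcg1, Nr1h3, Npc1 and Scarb1, and lay between the others for Npc2. Macrophage and leukocyte markers above the level numbered 5, 11 and 4 of 20 in the transgenic against 5, 4 and 5 in the non-transgenic cultures, with a summed signal of 5119 to 22908 against 3553 to 5128. Transgenic replicate 2 had the most of these markers above the level. On the brightest probe sets it was also the lowest culture for Apoe, Abca1, Abcg1, Npc1, Pltp and Nr1h3, and the highest for Scarb1 and Npc2. The leukocyte marker Ptprc and the macrophage marker Adgre1 were among 9 of the 20 that lay under the level on every array. Cd68 reached 8.90 in transgenic replicate 2. Of the 4 markers of this list that were tested, 3 lay higher, with a median of 1.49, or 0.99 without transgenic replicate 2, and the growth factor receptor gene Csf1r differed by 1.83 ± 0.26. All 15 cell cycle genes tested had a positive difference, as did 5320 of the 11208 genes tested. The median of the list was 1.20, or 0.66 without transgenic replicate 2. Transgenic replicates 1 and 2 carried this shift, with list means of 1.75 and 2.15 above the non-transgenic mean, against -0.16 in replicate 3. Of this list, Bub1 and Tyms passed the filter only through the transgenic group, with non-transgenic means of 6.97 and 7.34. Mcm2 was at 11.34, 11.39 and 10.63 in the transgenic against 10.25, 9.62 and 9.29 in the non-transgenic cultures. Fibroblast markers went both ways, 4 higher and 10 lower with a median of -0.18, and at an unadjusted p under 0.05 there were 4 lower and 1 higher. Among all 11208 genes tested, 563 were lower and 725 higher at that p. The collagen gene Col1a1 was at 0.13 ± 0.16, while Lum, Dcn, Postn and Gsn were at -1.53, -1.44, -0.73 and -0.32 and Thy1 at 0.90, these 5 named after their values were seen. Smooth muscle markers (2 higher, 6 lower, median -0.10) included the actin Acta2 at -0.046 ± 0.24. Endothelial markers (6 higher, 2 lower, median 0.34) ran between Ramp2 at -1.74 and Flt1 at 1.01, both named after their values were seen. The part of these cell types and of growth state in the efflux gene results was not tested.

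**Figure D4:**
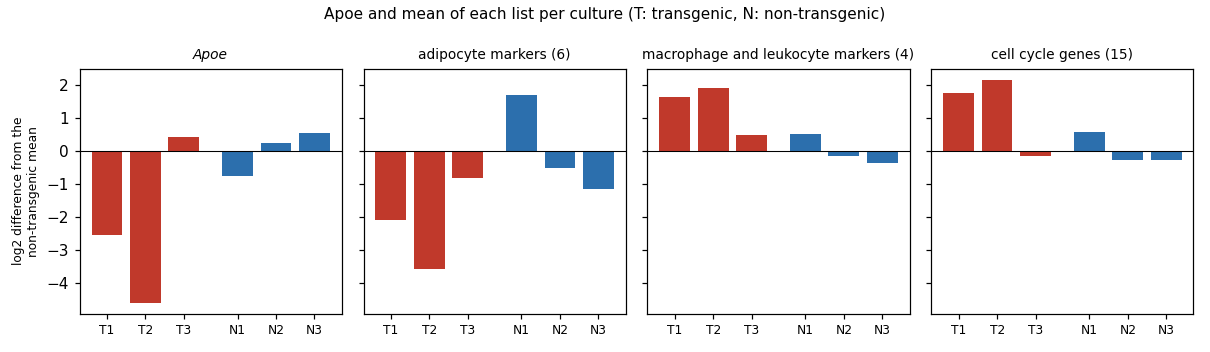
Log2 difference of each culture from the non-transgenic mean, for Apoe and for the mean of the tested adipocyte markers, macrophage and leukocyte markers and cell cycle genes, transgenic cultures in red on the left and non-transgenic cultures in blue on the right, with the number of genes in brackets. Apoe is at -2.55, -4.60 and 0.41 in the transgenic cultures, and the cell cycle genes at 1.75, 2.15 and -0.16. Aqp7, Slc2a4 and Cidec entered the adipocyte mean through their non-transgenic level only, and Bub1 and Tyms the cell cycle mean through their transgenic level only.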

How the data were processed

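RNA of 6 cultures, 3 transgenic and 3 non-transgenic, was measured on Affymetrix mouse genome arrays. Per the series' design text, 10 mice per group gave 5 cultures, RNA of 3 was arrayed, and an input near 50 ng was amplified in 2 steps. The authors deposited 1 intensity per probe set on a linear scale, from MAS5 in a version the sources used here do not give, according to the submitters' processing notes. This intensity was used as log2(intensity + 16), with the deposited scaling kept, since the trimmed means were equal. The number of arrays limits the precision.

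Probe sets were named from the array annotation, with symbols updated through RefSeq's mouse gene table. Each gene was its brightest probe set over all arrays. The 11208 genes whose mean reached the median probe set level (7.72 on the log2 scale, a signal of 194) entered a two-sided test by limma 3.58.1 under R 4.3.3 (eBayes with trend, Benjamini-Hochberg at 0.05). A second fit covered 22519 probe sets at that level, among them 15 of the 17 described here. This level is no measure of background, and detection calls were not used. The p-values set each group difference against the spread between separate cultures, moderated over all genes or probe sets in the fit.

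The genes, lists, tests and alternatives were chosen with earlier results of these data known. Named from each sterol list were the 3 tested genes with the smallest p, together with Srebf1, Mylip, Lpl, Rxra, Cd36 and fixed cell markers, and for likeness the 3 nearest genes. Replicate numbers come from the titles and are not stated to mark a shared day or litter, and deviations of same-numbered cultures correlated at 0.042, -0.28 and -0.034, so they were not taken as pairs. Alternatives changed the pseudocount, filter, scaling, variance trend, array weights, probe set rule and replicate block, and left out each array.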

Additional observations from a re-analysis of the deposited data

How the results depend on the processing

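Among 16 alternatives, Abca1, Abcg1, Apoe, Pltp and Scarb1 kept their direction in each. With estimated array weights, which rested mostly on transgenic replicate 1 and non-transgenic replicate 2, limma called 5504 genes (49.1%) and 6 of the 8 genes described: Abca1 (-1.03), Abcg1 (-0.61), Apoe (-2.79), Npc1 (-0.43), Scarb1 (1.03) and Pltp (-0.73), while Nr1h3 turned to 0.40. Leaving out each array gave 0 to 1649 genes called and 0 to 4 of the 8, with ranges of -1.06 to -0.50 for Abca1, -0.95 to -0.40 for Abcg1, -3.58 to -1.07 for Apoe, -0.88 to -0.30 for Pltp, 0.46 to 1.07 for Scarb1, -0.53 to -0.037 for Npc1, -0.41 to 0.19 for Nr1h3 and -0.061 to 0.10 for Npc2. All of these calls came without transgenic replicate 3. Centring each array on its median moved the median of all genes to 0.25, against -0.021 as deposited, and turned Nr1h3 (0.14) and Npc1 (0.055), while relative to that median both stayed lower. It put Abca1 at -0.44, Abcg1 at -0.41, Pltp at -0.27 and Apoe at -1.98, and Scarb1 at 1.03. It also turned the medians of 5 lists, other LXR targets (0.23), oxysterol enzymes (0.18), sterol transport (0.17), lipoprotein uptake (0.034) and related ABC transporters (0.12), all below the median of all genes. The mean of all probe sets turned Npc2 (-0.083). Npc2 probe set 1448513_a_at was at 0.077 without transgenic replicate 3 and -0.049 without replicate 2, against -0.031 with all arrays. With the replicate number as a block, 0 genes were called, 1117 had an unadjusted p under 0.05, and Abca1 was at -0.71 (adjusted p = 0.459). The filter at the 75th percentile left out Nr1h3. The causes were not tested. Dim probe sets are limited by unknown background.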

Other observations

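Other lists touch lipoproteins rather than cellular efflux. Of 6 tested genes of HDL and lipoprotein remodelling, 5 lay lower and 1 higher, with a median difference of -0.39, and 0.085 without transgenic replicate 2. Apod, a secreted lipocalin that rides on HDL, was at 14.14, 11.51 and 14.54 in the transgenic against 15.04, 14.79 and 14.67 in the non-transgenic cultures, so that the groups did not overlap although transgenic replicate 2 alone was far lower (difference -1.43 ± 0.69, limma adjusted p = 0.45). Of all genes tested, 6.72% lay wholly lower. Mttp, which loads lipid on to apolipoprotein B, differed by -0.43 ± 0.32 and Saa3, an acute phase apolipoprotein, by -0.35 ± 0.30.

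Of 4 tested lipoprotein uptake genes, 1 lay higher and 3 lower, with a median of -0.24, or -0.055 without transgenic replicate 2 and -0.74 with the mean of all probe sets of a gene. Cd36, a fatty acid and oxidised LDL receptor, was at 9.77, 7.11 and 8.46 in the transgenic against 12.02, 9.77 and 8.21 in the non-transgenic cultures, a difference of -1.56 ± 0.99 (limma adjusted p = 0.531). Vldlr, a receptor for triglyceride-rich particles, differed by -0.46 ± 0.26. Lrp8, a receptor that binds apolipoprotein E, had log2 values of 8.59, 10.02 and 7.28 in the transgenic group. Its non-transgenic values were 7.38, 7.93 and 7.26, with a mean of 7.53 that lay under the level needed for testing. Lrp8 thus passed the filter only through the transgenic group, which favoured a higher direction. Of these 4 genes, limma called only Lrp8 without transgenic replicate 3, at 1.78 (adjusted p = 0.0379).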
